A study of Rattus norvegicus with 6 samples.

Results

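The PGC-1 coactivators, the peroxisome proliferator-activated receptors (PPARs), the estrogen-related receptors (ERRs) and the retinoid X receptors (RXRs) were followed through 10 genes: Ppargc1a, Ppargc1b, Perm1, Ppara, Ppard, Esrra, Esrrg, Rxra, Rxrb and Rxrg. Members were the probe sets that the platform annotation pairs with exactly 1 symbol, that symbol being one of these names. Each gene had 1 probe set, which gave 10 probe sets of the 15310 tested and of 29215 in all. The samples were primary cardiomyocytes cultured from the ventricles of 2-day-old Sprague-Dawley rats, enriched for muscle cells by pre-plating. Of 6 samples, 3 were treated for 24 h with human recombinant cardiotrophin 1 (hCT1, 0.5 nM), a cytokine of the interleukin 6 family, and 3 received control serum-free medium. Each sample's total RNA was read on its own Affymetrix rat gene array with probes along whole transcripts. The growth protocol in the sample records mentions a hypertrophic agonist for all 6 samples, whereas their treatment protocol and the methods give plain serum-free medium for control samples. If the agonist was present in both groups, every difference below is that of hCT1 on top of it. No source states that the 3 samples of a group came from separate cultures, and the p-values therefore reflect only how far these samples differ among themselves, which may be technical variation.

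In heart muscle these genes encode a transcriptional network for mitochondrial biogenesis and fuel oxidation. PGC-1α (Ppargc1a) and PGC-1β (Ppargc1b) do not bind DNA themselves but are recruited by nuclear receptors, among them ERRα and ERRγ, which act on genes of oxidative metabolism, and PPARα, which acts on genes of fatty acid oxidation. PPARs bind DNA as heterodimers with an RXR. RXRs also pair with thyroid hormone receptors, retinoic acid receptors and liver X receptors, whereas ERRs bind as monomers or dimers without them. Perm1 is a muscle protein whose gene is induced by PGC-1 coactivators and ERRs.

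With hCT1, 5 of the 10 genes fell and 0 rose, and 0 were higher either at an unadjusted limma p under 0.05 or by a one-way test. The study's statistics section names that test for multiple-group comparisons, whereas its array methods name none. Rxrg fell furthest, to a level 3.09-fold lower, followed by Ppargc1a (1.68-fold lower), Perm1 (1.64-fold lower), Rxra (1.35-fold lower) and Ppara (1.22-fold lower). Ppargc1b, Ppard, Esrra, Esrrg and Rxrb did not pass the test. Values are log2 values made with RMA, so that a difference of 1 is a 2-fold change, and the test was limma with p-values adjusted by Benjamini-Hochberg across all 15310 probe sets and a threshold of 0.05. Over all probe sets tested, 14.8% passed, 9.84% as lower and 4.98% as higher, and the median log2 fold change was 0.00 against -0.26 over the 10 genes. The groups did not overlap in 6 of the 10 genes, all lower with hCT1. Groups did not overlap in 34.3% of all probe sets, and in 20.5% with hCT1 lower. The 3 genes that fell at least 1.5-fold, Rxrg, Ppargc1a and Perm1, compare with 0.784% of all probe sets that passed with such a fall. Because the 10 genes were chosen with earlier results of these data known, their shares beside those of all probe sets are description only. With 3 samples against 3, an exact permutation test cannot give a p below 0.1, 2-sided. It gave 0.1 for the 6 genes whose groups did not overlap. In these bulk cultures fewer cells of a type and less RNA per cell cannot be told apart.

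**Figure D1:**
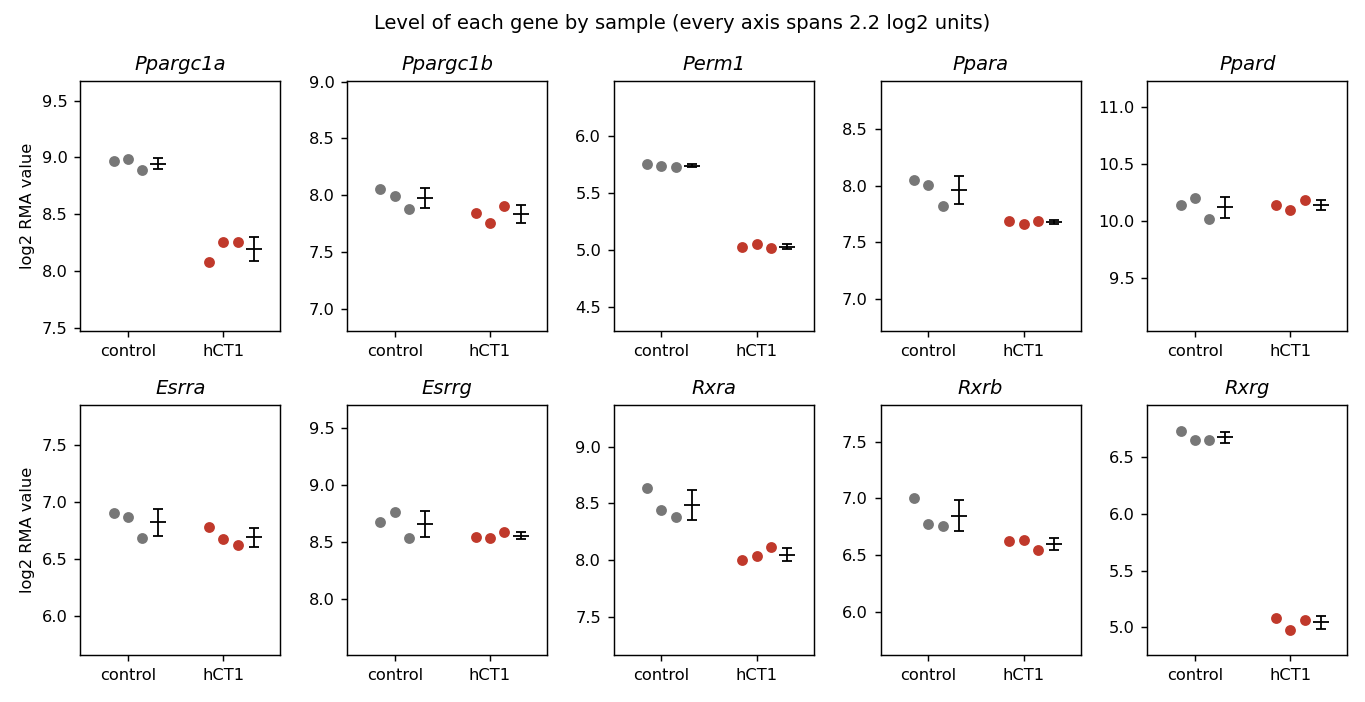
Log2 RMA values of the 10 genes, with 1 point per sample in the order of replicates 1 to 3, grey for the 3 controls and red for the 3 samples given hCT1, with the mean and SD (n = 3) in black beside them. The vertical axes all span the same range of log2 units but start at different values, since levels of different probe sets cannot be compared. Rxrg, Ppargc1a and Perm1 have gaps between the groups of 1.56, 0.63 and 0.68, whereas the groups overlap for Ppargc1b, Ppard, Esrra and Esrrg.

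Of the coactivators, Ppargc1a (probe set 10772986) had log2 values of 8.96, 8.99 and 8.89 in control samples and 8.08, 8.26 and 8.26 in hCT1-treated samples. All 3 hCT1-treated samples lay below all control samples, and hCT1 replicate 1 was the lowest. The mean moved from 8.95 ± 0.05 to 8.20 ± 0.10 (SD, n = 3 each), which gave a log2 fold change of -0.75 (95% interval -0.90 to -0.60, adjusted p = 0.00017 from limma). Perm1 (probe set 10874860) had log2 values of 5.76, 5.73 and 5.73 in control samples and 5.02, 5.05 and 5.01 with hCT1. These were among the tightest groups of the 10 genes, with SDs of 0.02 in both groups. The log2 fold change was -0.71 (95% interval -0.83 to -0.60, adjusted p = 4.7e-05 from limma). In hCT1-treated samples Perm1 lay at percentile 43.6 of signal over all probe sets, and because RMA values flatten near the dim end, its fold may be understated. Both calls stood when any 1 sample was left out, with log2 fold changes between -0.78 and -0.69 for Ppargc1a and between -0.72 and -0.70 for Perm1.

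Ppargc1b (probe set 10804678), the other PGC-1 coactivator, had log2 values of 8.05, 8.0 and 7.88 in control samples and 7.84, 7.75 and 7.91 with hCT1. The groups overlapped, since hCT1 replicate 3 lay above control replicate 3. Its log2 fold change was -0.14 (95% interval -0.29 to 0.01, adjusted p = 0.201 from limma). The difference in response between the PGC-1 genes was taken as the log2 value of Ppargc1a minus that of Ppargc1b within each sample, of which only the change between groups is read. It was 0.91 to 1.01 in control samples and 0.24 to 0.51 with hCT1, so that Ppargc1a fell by 0.61 more on the log2 scale (SE 0.08). Of 6 pairs of related genes compared in this way, this one and 4 others had groups that did not overlap, each with an exact 2-sided permutation p of 0.1, the smallest the design allows, and 0.12 after adjustment over the 6 pairs. Pprc1, the third relative of the PGC-1 genes, had a log2 fold change of 0.05 (adjusted p = 0.622 from limma).

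To show the start regions of the genes with the 3 largest falls, their RefSeq promoters in assembly GRCr8 are printed on the gene's strand, from 250 bases before the transcription start to 50 after it. Capitals mark matches on either strand to the motifs searched: the ERR site AAGGTCA, the nuclear receptor hexamer AGGTCA that it contains, the direct repeat AGGTCANAGGTCA of PPAR and RXR dimers, the cAMP response element (CRE) TGACGTCA with its short form TGACG, the GC box GGGCGG, the STAT site TTCNNNGAA, the E-box CACGTG and the MEF2 site. The windows are Ppargc1a at chr14:63634058-63634357, Perm1 at chr5:172081999-172082298 and Rxrg at chr13:82276237-82276536, all on the plus strand.
Ppargc1a: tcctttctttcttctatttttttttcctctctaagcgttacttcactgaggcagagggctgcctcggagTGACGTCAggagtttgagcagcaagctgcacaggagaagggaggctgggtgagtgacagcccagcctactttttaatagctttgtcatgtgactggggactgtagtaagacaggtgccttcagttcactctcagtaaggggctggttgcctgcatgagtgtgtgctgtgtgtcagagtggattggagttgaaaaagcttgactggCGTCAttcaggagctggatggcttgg
Perm1: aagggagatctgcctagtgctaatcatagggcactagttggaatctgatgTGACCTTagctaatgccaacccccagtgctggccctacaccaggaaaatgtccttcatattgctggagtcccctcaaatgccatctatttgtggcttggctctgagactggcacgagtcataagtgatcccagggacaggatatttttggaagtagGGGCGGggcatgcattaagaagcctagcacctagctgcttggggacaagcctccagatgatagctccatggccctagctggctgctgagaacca
Rxrg: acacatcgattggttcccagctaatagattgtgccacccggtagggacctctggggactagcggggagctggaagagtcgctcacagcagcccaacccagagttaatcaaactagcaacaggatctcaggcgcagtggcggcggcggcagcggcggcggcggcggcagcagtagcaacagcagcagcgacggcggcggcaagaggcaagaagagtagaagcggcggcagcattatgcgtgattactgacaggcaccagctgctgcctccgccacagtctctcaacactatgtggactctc
The Ppargc1a window held a whole CRE, which reads the same on both strands and so holds the short form on each of them. It begins 181 bases before the start, and a further short form begins at base 25 after it. CREB and its relatives are known to act on this gene through such an element. Of 33469 RefSeq promoters, 1.83% held the whole CRE and 21.2% the short form. The Perm1 window held an ERR site on the minus strand, beginning 200 bases before the start, and a GC box 44 bases before it. The ERR site stood in 4.61% of all promoters and the GC box in 33.1%. None of the 9 motifs stood in the Rxrg window.

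Promoters were listed for 9 of the 10 genes, in 12 windows because Esrrg had 4, and Ppard was not among them. The GC box stood in 8 of the 12 windows, those of Rxra, Rxrb, Ppara, Ppargc1b, Esrra and Perm1 and 2 of Esrrg. GC content was 50.3% for Ppargc1a, 51.7% for Perm1 and 60.7% for Rxrg, against 73.7% for Ppara and 84.7% for Rxra, with a median of 51.7% over all promoters. The nuclear receptor hexamer stood in 16.2% of all promoters and, among these windows, in those of Perm1 and 1 of Esrrg. The short CRE also stood in that of Rxrb. The direct repeat (0.0538% of all promoters), the STAT site (8.87%), the E-box (6.42%) and the MEF2 site (0.565%) matched in none of the 12. A match describes letters and does not show a site in use.

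Of the PPARs, Ppara (probe set 10898359), which encodes the receptor that drives fatty acid oxidation genes in heart and liver, had log2 values of 8.05, 8.01 and 7.82 in control samples and 7.69, 7.66 and 7.69 with hCT1. All hCT1-treated samples lay below all control samples, by a gap of 0.14 from control replicate 3, the lowest control. The log2 fold change was -0.28 (95% interval -0.44 to -0.13, adjusted p = 0.025 from limma). The call stood in 1 of 6 fits with a sample left out. Without control replicate 3 the adjusted p from limma was 0.00706, and without any other single sample it was 0.0645 to 0.089. Ppard (probe set 10828714), which encodes the widely expressed PPARδ, had log2 values of 10.14, 10.20 and 10.02 in control samples and 10.14, 10.09 and 10.19 with hCT1. The groups lay over one another, with a log2 fold change of 0.02 (95% interval -0.12 to 0.17, adjusted p = 0.856 from limma). Within samples, Ppara fell by 0.30 more than Ppard on the log2 scale (SE 0.04). Pparg, the receptor of adipocytes, had a log2 fold change of -0.08 (adjusted p = 0.331 from limma).

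Of the ERRs, neither gene passed. Esrra (probe set 10728247) had log2 values of 6.91, 6.87 and 6.69 in control samples and 6.78, 6.67 and 6.62 with hCT1, and Esrrg (probe set 10766588) had 8.68, 8.77 and 8.54 in control samples and 8.54, 8.53 and 8.59 with hCT1. In both, control replicate 3 lay within the range of the hCT1-treated samples and the other controls lay above it. Log2 fold changes were -0.13 for Esrra (95% interval -0.30 to 0.04, adjusted p = 0.27 from limma) and -0.11 for Esrrg (95% interval -0.26 to 0.05, adjusted p = 0.334 from limma). The intervals thus take in falls of moderate size in both genes, and the test does not show that they stayed level. The responses of Esrra and Esrrg differed by -0.03 (SE 0.07), with overlapping groups and an exact 2-sided permutation p of 0.8. The third relative, Esrrb, was -0.10 (adjusted p = 0.283 from limma).

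The RXR genes showed the widest spread of responses. Rxrg (probe set 10765413), which encodes the isoform found mostly in striated muscle and parts of the brain, had log2 values of 6.73, 6.65 and 6.64 in control samples and 5.09, 4.98 and 5.07 with hCT1. The groups were 1.56 apart at their nearest, against SDs of 0.05 in control samples and 0.06 with hCT1. Its log2 fold change of -1.63 (95% interval -1.76 to -1.50, adjusted p = 6.5e-07 from limma) was second from the most negative of the 15310 probe sets. It moved from percentile 61.6 of signal in control samples to 43.8 with hCT1, so its fold may be understated. Rxra (probe set 10834719), which encodes the main RXR of cardiac muscle in mouse, had log2 values of 8.64, 8.44 and 8.38 in control samples and 8.0, 8.04 and 8.11 with hCT1. The groups did not overlap, and control replicate 1 stood above the other controls. The log2 fold change of Rxra was -0.44 (95% interval -0.60 to -0.27, adjusted p = 0.0055 from limma), and it was -0.36 without control replicate 1.

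Rxrb (probe set 10831715), the most broadly expressed RXR, had log2 values of 7.0, 6.78 and 6.76 in control samples and 6.63, 6.63 and 6.54 with hCT1. The groups were apart by a gap of 0.13, but the log2 fold change of -0.25 (95% interval -0.41 to -0.08) had an adjusted p of 0.058 from limma. It passed without control replicate 3 (adjusted p = 0.0435 from limma) and in no other fit with a sample left out (adjusted p up to 0.158). Within samples, Rxrg fell by 1.19 more than Rxra (SE 0.07) and by 1.38 more than Rxrb (SE 0.07) on the log2 scale, and Rxra by 0.19 more than Rxrb (SE 0.06). The smallest of these, between Rxra and Rxrb, ranged from 0.15 to 0.25 in size as each sample was left out.

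**Figure D2:**
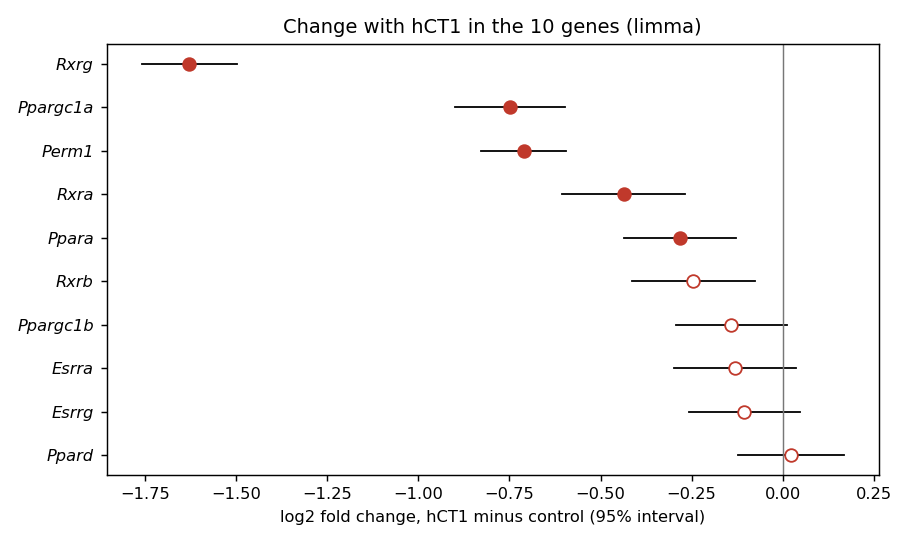
Log2 fold change (hCT1 minus control) of the 10 genes with its 95% interval from limma, ordered by size; filling marks an adjusted p under 0.05. Rxrg (-1.63) lies apart from Ppargc1a (-0.75) and Perm1 (-0.71), and the intervals of Ppargc1b, Esrra, Esrrg and Ppard include 0, while that of Rxrb, which did not pass after adjustment, does not.

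Control replicate 3 was the lowest control in all 10 genes. Over all probe sets tested it was the lowest control in 40.5%, or in 44.3% of those above the 40th percentile of mean signal, as the 10 genes were. With limma's array weights it had the lowest weight of the 6 arrays (0.53, against 0.91 to 1.85 for the others). With these weights 6 of the 10 genes passed as lower, Rxrb among them (adjusted p = 0.0451 from limma). Without control replicate 3 the log2 fold changes were more negative, -0.35 for Ppara, -0.49 for Rxra, -0.20 for Esrra and -0.17 for Esrrg, and the same number of genes passed as lower. Without control replicate 1, the highest control in 7 of the 10 genes, they were less negative (-0.24, -0.36, -0.09 and -0.10 in the same order). After quantile normalization again they were less negative too (-0.23, -0.39, -0.06 and -0.07). The control SD was larger than the hCT1 SD in 7 of the 10 genes, as it was in 55.0% of all probe sets.

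**Figure D3:**
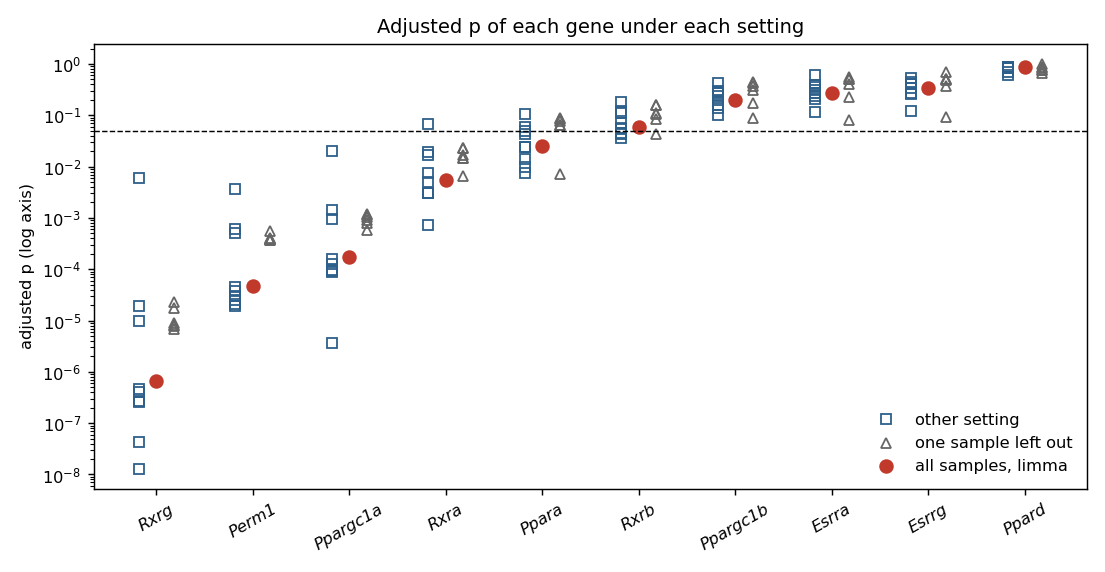
Adjusted p (log axis) of each gene under each setting: red circles are limma with all 6 samples, blue squares the other tests, filters and normalizations, and grey triangles the fits with 1 sample left out; the dashed line is 0.05. Rxrg, Perm1 and Ppargc1a lie below the line under every setting drawn, Rxra lies above it once (0.0673 by the adjusted one-way test of the methods), and Ppara and Rxrb fall on both sides of it.

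The partners and targets of these factors were described through 7 lists, beside 9.84% of all probe sets tested that passed as lower and 4.98% as higher. At an unadjusted limma p under 0.05, 1 gene was higher among the relatives and partners, 1 among the coregulators, 1 among the signalling factors, 0 among the mitochondrial genome genes and 1 among the ERR targets, lists in which 0 were higher after adjustment. Of 9 measured relatives and RXR partners, 3 were lower and 0 higher (33.3% lower, median log2 fold change -0.17), namely the liver X receptor gene Nr1h2 (-0.34) and the thyroid hormone receptor genes Thra (-0.25) and Thrb (-0.24). Adjusted p from limma was 0.0228, 0.0192 and 0.0475 in the same order, and 0 of the 9 passed once replicate 1 or 2 of either group was removed. By the one-way test after adjustment, or with all probe sets, 1 passed. With array weights, or with the filter on dim probe sets, 4 did. Of 10 coregulators 1 was lower (10%, near the share over all probe sets tested) and 9 did not pass. The lower gene was Ncoa2 (-0.26, adjusted p = 0.026 from limma), a coactivator of steroid and other nuclear receptors. That call was lost without control replicate 1 or any 1 hCT1 replicate, and 2 coregulators were lower without control replicate 3. Of 18 signalling factors that act on Ppargc1a or its product, 3 were lower and 0 higher (median -0.01). Prkag2, a regulatory subunit of AMP-activated protein kinase, fell from 9.03 ± 0.07 to 8.46 ± 0.02 (SD, n = 3 each), by 0.57 on the log2 scale (adjusted p = 0.00039 from limma). The other lower genes were Mef2d (-0.34), a muscle transcription factor, and Hdac5 (-0.25), a repressor of MEF2 factors. Removing control replicate 1, control replicate 2 or a single hCT1 replicate brought the number that passed down to 1, and removing control replicate 3 brought it to 4.

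Genes of mitochondrial DNA transcription and replication, which PGC-1 coactivators raise through NRF1 and GABP, mostly did not pass. The list and its counts also take in Nrf1 (-0.14) and Gabpa (-0.12), which encode NRF1 and a subunit of GABP, and neither passed. Of 10 measured, 1 was lower, the mitochondrial RNA polymerase gene Polrmt, which fell by 0.24 on the log2 scale (adjusted p = 0.0256 from limma). That share, 10%, is near the 9.84% of all probe sets tested that passed as lower, and the median of the list was -0.07. The call of Polrmt stood without control replicate 3 or without hCT1 replicate 1 and was lost without any other sample. It was also lost after quantile normalization again (adjusted p = 0.075 from limma) and by the one-way test after adjustment (adjusted p = 0.0676). With all probe sets or a replicate block it was lost as well (adjusted p = 0.0575 and 0.0534 from limma).

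Known PPAR target genes moved in both directions. Of 23 measured, 8 passed as lower, 3 passed as higher and 12 missed the threshold (34.8% lower and 13% higher, median log2 fold change -0.11). Fabp3, which encodes the fatty acid binding protein of heart muscle, had log2 values of 10.1, 10.11 and 10 in control samples and 9.31, 9.34 and 9.36 with hCT1, a log2 fold change of -0.73 (adjusted p = 6.3e-05 from limma). Cpt1b, the gate for fatty acid entry into mitochondria in muscle, fell by 0.53 and Ech1, an enzyme for the oxidation of unsaturated fatty acids, by 0.52 on the log2 scale. In these 3 genes every hCT1-treated sample lay below every control sample. Angptl4, a secreted inhibitor of lipoprotein lipase, went the other way, from 5.02, 4.71 and 4.71 in control samples to 6.12, 6.30 and 6.33 with hCT1 (log2 fold change 1.44, adjusted p = 2.9e-05 from limma). The remaining higher genes, named here after their values were seen, were the lipase gene Lpl (0.38) and Plin2 (0.30), which encodes a coat protein of lipid droplets. Plin2 did not pass without control replicate 1 or 2 or without hCT1 replicate 1 or 2 (adjusted p = 0.0925 to 0.106 from limma), whereas Lpl passed in all 6 fits with a sample left out. Cd36 is counted as lower on its brighter probe set, and its other probe set differed in whether it passed.

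Of 18 measured target genes of ERRs and PGC-1 coactivators, 4 passed as lower, 0 as higher and 14 missed the threshold (22.2% lower, median -0.03). The lower genes were the muscle creatine kinase gene Ckm (log2 fold change -0.71, adjusted p = 9e-05 from limma), the cardiac troponin I gene Tnni3 (-0.62), the succinate dehydrogenase subunit gene Sdhb (-0.37) and the myoglobin gene Mb (-0.36). All 4 had groups that did not overlap, and 4 genes of the list passed in every fit with 1 sample left out. Tnni3 and Pln, which are in this list, are also among the cardiomyocyte markers read below. Of 12 genes listed for retinoid handling or as retinoic acid targets, 3 were lower and 1 was higher (25% lower, median 0.00). Their products carry, bind, make, store or remove retinoids. Of these genes 6 lay below the 40th percentile of signal, namely Rbp4, Stra6, Crabp2, Aldh1a1, Cyp26b1 and Lrat. The share and the median thus rest partly on dim probe sets. With the filter at that percentile 6 genes were left, of which 3 were lower and 1, not Lrat, was higher (median -0.12). Lrat, which esterifies retinol for storage, had log2 values of 3.69, 3.48 and 3.45 in control samples and 4.64, 4.49 and 4.70 with hCT1 (a log2 difference of 1.07, adjusted p = 5.9e-05 from limma). In control samples it lay at percentile 21.3 of signal, and its values there may be background. The retinal reductase gene Dhrs3 (-0.45) and the retinaldehyde dehydrogenase genes Aldh1a2 (-0.25) and Aldh1a3 (-0.23) were lower. Lower genes numbered 2 when replicate 1 of either group was removed and 1 when control replicate 2, hCT1 replicate 2 or hCT1 replicate 3 was, and 2 genes were higher with control replicate 3 removed. After quantile normalization again 1 gene was lower, as with all probe sets or a replicate block, and by the one-way test after adjustment 0 were.

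**Figure D4:**
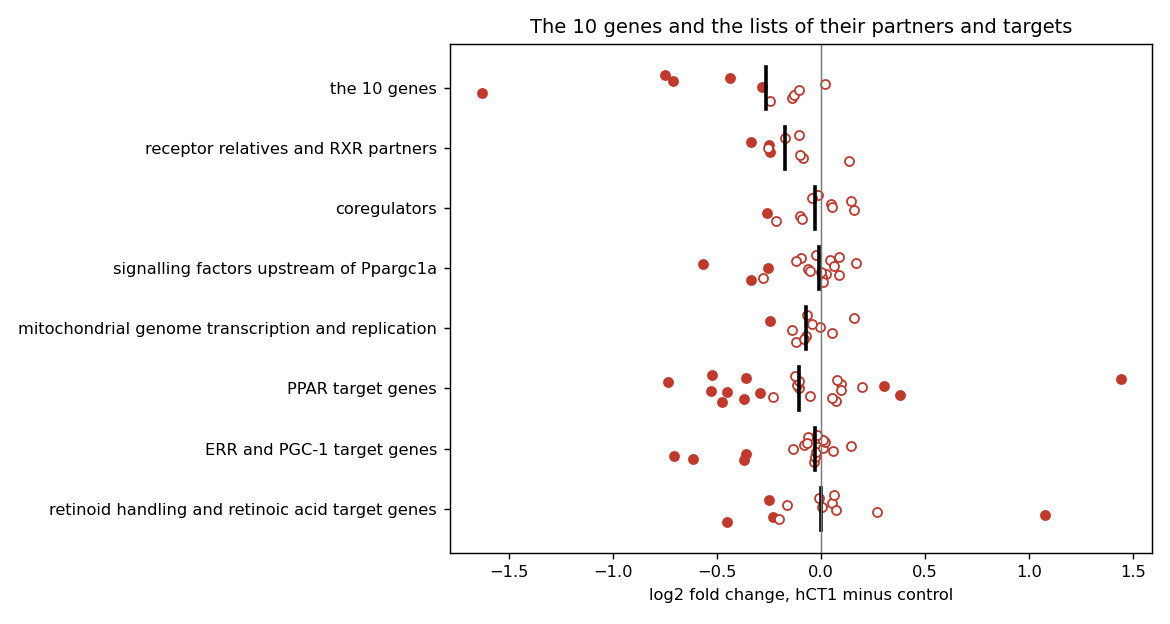
Log2 fold change (hCT1 minus control) of the 10 genes and of the measured genes of 7 lists of partners, regulators and targets, 1 point per gene on its brightest probe set; filling marks genes with a limma adjusted p under 0.05, and black bars are medians. The median is -0.26 over the 10 genes, -0.17 over their relatives and RXR partners and between -0.11 and 0.00 in the other lists, with Rxrg (-1.63) and Angptl4 (1.44) at the ends of the plot.

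The genes whose pattern over the 6 samples was most like that of a member were ranked by the root mean square difference of mean-centred log2 values. For Ppargc1a these were Fign (0.03), Kcna4 (0.04), Ifi27 (0.05), Nrep (0.05) and Fabp3 (0.05), with log2 fold changes of -0.83 to -0.70. As many as 43 probe sets lay within 0.1 of Ppargc1a. For Rxrg the nearest were Gabrb2 (0.13), Myh3 (0.17), Mx2 (0.20), Tecrl (0.21) and Usp18 (0.22), with log2 fold changes of -1.75 to -1.38, and 0 lay within 0.1. With 6 samples in 2 groups this likeness is mostly that of the size of the group difference.

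Markers of the cell types in the cultures were read beside these results. Over all probe sets tested, 9.84% passed as lower and 4.98% as higher. Of 12 cardiomyocyte markers 6 were lower and 0 higher (median log2 fold change -0.18), the furthest being Tnni3 (-0.62), Myl2 (-0.48) and Myh6 (-0.45), named after their values were seen. The other 6 did not pass, namely Tnnt2 (0.03), Myh7 (0.01), Myl3 (-0.06), Pln (-0.07), Actc1 (-0.11) and Ryr2 (-0.13). The summed level of the list, as the log2 of its summed linear values, was 14.82 to 14.83 in control samples and 14.66 to 14.73 with hCT1. Such sums rest mostly on the brightest probe sets, such as Actc1 (control mean 12.25), and little on dimmer ones, such as Myh6 (8.60). They do not measure how many cells of a type were present. Of 6 smooth muscle markers 3 were lower (summed level 13.24 to 13.28 in control samples, 13.15 to 13.18 with hCT1), and of 8 leukocyte markers 1 was lower (9.16 to 9.24, then 8.85 to 9.05), with Ptprc, Itgam and Cd163 below the 40th percentile of signal. Of 10 fibroblast markers 0 passed (13.69 to 13.76, then 13.66 to 13.68). Of 7 endothelial markers Kdr was higher and Emcn lower (11.16 to 11.27, then 11.15 to 11.24), and Emcn did not pass when control replicate 2 or 3 or hCT1 replicate 1 or 2 was removed (adjusted p = 0.0517 to 0.0739 from limma). Of 5 adipocyte markers 0 passed (6.57 to 6.67, then 6.66 to 6.76), and Adipoq, Fabp4 and Lep lay below the 40th percentile of signal. At an unadjusted limma p under 0.05, 2 fibroblast markers were lower and 1 higher, and 0 adipocyte markers differed. The part of cell makeup in the falls of the 10 genes was not tested.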

How the data were processed

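The deposited values are log2 expression values per probe set, 1 column per sample, which the authors made with RMA in Affymetrix Expression Console per the submitters' processing notes; versions are not given in the sources used here. RMA corrects background, quantile-normalizes and summarises probes, which compresses low signals. Array precision is limited by the number of arrays, 3 per group. Probe sets were named through the platform annotation: of 29215, 15310 had exactly 1 symbol, 323 had several and 13582 had none, and 15279 of the 15310 matched RefSeq by Entrez identifier. These 15310 were tested (hCT1 minus control) by lmFit and eBayes of limma 3.58.1, run in R 4.3.3, with Benjamini-Hochberg adjustment at 0.05. Correlations between samples were 0.997 to 0.998 within groups and 0.994 to 0.996 between groups. On simulated data of the same size, limma called 65 of 66 probe sets changed by 1 on the log2 scale, 48 of 67 changed by 0.5 and 12 of 67 changed by 0.25, with 4 false calls among 129. Fewer probe sets were changed there than in these data, where 2268 passed, so these rates need not hold here. Differences between related genes were tested with exact permutation (scipy 1.17.1).

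The members and lists were chosen with earlier results of these data known. In each list the 4 genes of largest change among those that passed with groups apart were named, plus Pparg, Esrrb and Pprc1. A gene with several probe sets was read on its brightest. Alternatives were a trended robust fit, the one-way test named in the methods, quantile normalization again, median centring, a filter at the 40th percentile of signal, all probe sets, gene means, array weights, a replicate block, stricter thresholds and each sample left out. Promoters came from RefSeq (GRCr8).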

Additional observations from a re-analysis of the deposited data

How the results depend on the processing

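Rxrg, Perm1 and Ppargc1a passed as lower under all 19 alternatives, with log2 fold changes of -1.65 to -1.60, -0.72 to -0.69 and -0.78 to -0.69. Of the 10 genes, 5 passed in limma with all samples, 3 by the one-way test after adjustment, 3 where a 1.5-fold change was also required, and 4 to 6 when 1 sample was left out; 0 passed as higher under any alternative. Ppara was lost by the one-way test after adjustment (adjusted p = 0.106), with all probe sets (0.0585), without any 1 sample other than control replicate 3, and at both stricter thresholds. Rxra was lost by the one-way test after adjustment and at 1.5-fold. Rxrb passed with the trended robust fit, the filter on dim probe sets, array weights, without control replicate 3, and by the one-way test and limma without adjustment. The sign of Ppard turned with array weights (-0.015), without control replicate 3 (-0.031) and without hCT1 replicate 3 (-0.0018), with a highest value of 0.062 when 1 sample was left out. The sign of the difference between Esrra and Esrrg turned, in alternatives chosen after seeing the data, after quantile normalization again (0.0099), without control replicate 1 (0.0079) and without hCT1 replicate 3 (0.0264), with a lowest value of -0.077 when 1 sample was left out. The other 5 differences between related genes kept their sign in these fits, after median centring and with array weights. The cause was not tested in any of these.

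Over all probe sets 2268 passed, against 1051 by the one-way test after adjustment, 859 at an adjusted p under 0.01, 238 with a 1.5-fold change, 1242 (without control replicate 2) to 2683 (without control replicate 3) with 1 sample left out, and, in alternatives chosen after seeing the data, 3950 by the one-way test and 4594 by limma without adjustment. The share of calls that were higher was 33.6%, and 44.4% after quantile normalization again. It was lowest with the filter on dim probe sets (31.2%). Where a 1.5-fold change was also required it was 49.6%, with 118 probe sets higher and 120 lower. Both groups carry replicate numbers 1 to 3, but no source says that these pair samples, so the numbers were not taken as pairing. Deviations of same-numbered samples correlated at -0.03, 0.05 and -0.28, and those of differently numbered samples at -0.18 to 0.21. With a replicate block 1500 probe sets and 5 of the 10 genes passed.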
